A study of Mus musculus with 12 samples.

Results

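The response of the wound leading edge (LE) was compared between the early and the later time of re-epithelialization, 4 days (D4) and 7 days (D7) after injury. The LE response of a gene is its level in basal cells from the wound front less its level in basal cells of control skin from the same day, and the quantity described here is this response at D4 minus the response at D7. A larger or higher response at D4 means that this difference is positive, and a smaller or lower one that it is negative. This holds also for genes that were lower in LE cells. The members were taken by their labels and are the 8 arrays of LE and control cells, of 12 arrays in all. The groups were LE D4, control D4, LE D7 and control D7, with 2 arrays each. All mice were CD1, and a wound of 3 mm had been made in the tail skin of each. LE cells came from a 4 mm punch around the wound and control cells from skin away from it. The 4 other arrays were of the proliferative hub (a 6 mm punch) on the same days and are given only beside LE values. Each sample was a pool of 5 mice, and 300 living cells were sorted as α6-integrin high and CD34 negative. The punch enriches LE cells without isolating them, because it also takes skin just behind the wound front. The paper reports that the non-proliferating LE zone was widest at D4 and narrowed later, while the punch had the same size on both days. A different share of LE cells on the 2 days therefore cannot be told apart from a different response of these cells. Expression was read from amplified cDNA on Affymetrix arrays of the type Mouse Genome 430 PM. The labels give the 2 arrays of a group as biological replicates, and nothing states that they were separate pools, so every standard error (SE) and p value rests on treating them as independent.

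When skin is cut, keratinocytes at the edge loosen their hold on the basement membrane, express stress keratins and proteases, and crawl as a sheet under the clot, while cells behind them divide. The sheet closes over several days, after which the edge cells resume stratification and rebuild the barrier. Genes of adhesion, matrix breakdown, metabolism and growth are therefore the usual readouts of an LE population.

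Values are log2 intensities normalized by RMA, and a difference of 1 is a 2-fold change. Array medians were 5.401 to 5.469 at D4 and 4.25 to 4.28 at D7, so levels were never compared across days, only differences within a day. The array minima were 3.30 to 3.38 at D4 and 2.44 to 2.48 at D7, and the maxima were 13.04 to 13.11 at D4 and 12.34 to 12.54 at D7. One limma fit across 17097 genes gave each test, and a gene passed at a Benjamini-Hochberg adjusted p under 0.05. The sorted cells carried basal markers on every array. Krt5, the main basal type II keratin, read 12.63 and 12.60 in LE D4, 12.66 and 12.72 in control D4, 12.11 and 11.93 in LE D7, and 12.06 and 12.08 in control D7. The median of 8 basal markers lay between 10.91 and 12.13 on the 8 arrays. Of these markers, 2 were called higher and 1 lower in LE than in control cells at D4, and 0 and 1 at D7. Krt15, another basal keratin, had -2.48 in LE against control cells at D4 and -1.88 at D7. In pooled cells of this kind, fewer cells of a type and less RNA per cell cannot be told apart.

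The LE response was large on both days and mostly shared. At D4, 1419 genes were higher and 997 lower in LE than in control cells (8.3% and 5.83% of genes tested). At D7, 1581 genes were higher and 918 lower (9.25% and 5.37%). Of the genes higher at D4, 62.8% were also higher at D7, and of those higher at D7, 56.4% were also higher at D4. Of the genes lower at D4, 57.5% were also lower at D7, and of those lower at D7, 62.4% were also lower at D4. The D4 and D7 comparisons share no arrays. Across all genes, which are not independent replicates, the responses correlated with a Pearson r of 0.79 and a Spearman rho of 0.62. Among the 891 genes higher on both days, the median response was 0.86 at D4 and 0.87 at D7. Among the 573 lower on both days it was -0.99 at D4 and -0.90 at D7. Only Eea1, which encodes an early endosome tether, and Fance, a Fanconi anaemia DNA repair gene, passed on both days with opposite signs. Eea1 was higher in LE cells at D4 (0.83) and lower at D7 (-0.55), and Fance was lower at D4 (-0.55) and higher at D7 (0.60). For neither did the difference between the days pass (adjusted p = 0.11 and 0.15).

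**Figure D1:**
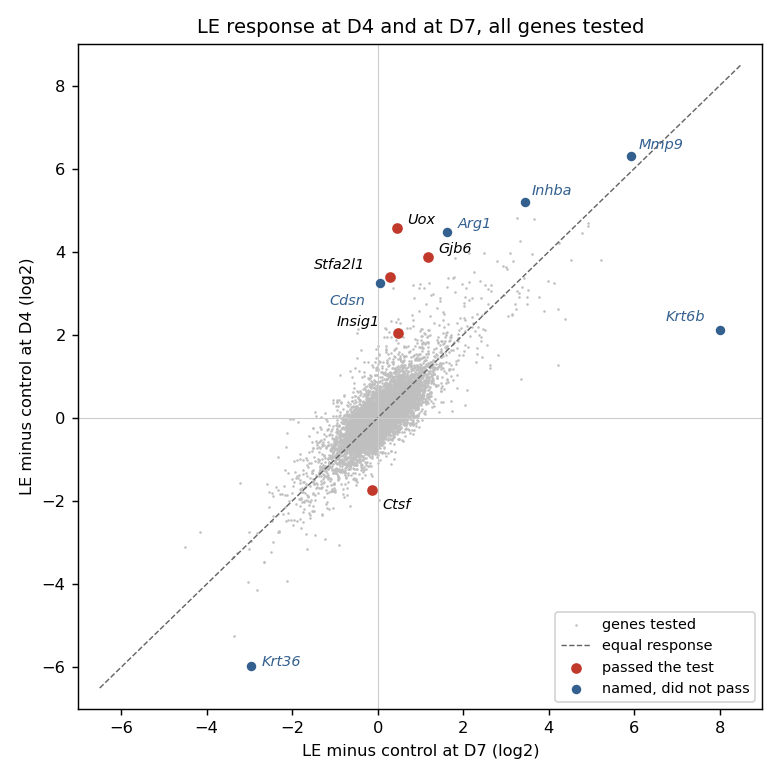
LE minus control at D4 (vertical axis, log2) against LE minus control at D7 (horizontal axis, log2) for the 17097 genes tested, with the line of equal response dashed. Genes lie along the line (r = 0.79 across genes), the 5 genes in red passed the test of the difference between the days, and the genes in blue did not.

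The direct test of D4 against D7 called 5 genes. The response was higher at D4 for 4 genes (0.0234% of genes tested) and lower for 1 (0.00585%). At an unadjusted p under 0.05 there were 656 genes with a higher response at D4 and 681 with a lower one (3.84% and 3.98%). These 2 unadjusted shares are the background for the main counts in gene lists that follow, none of which is a call. The background moves with the processing, so list counts under an alternative are not to be set against these shares. With each array scaled to one median and spread, 509 of all genes had a higher response at D4 at that p and 1165 a lower one. The precision was limited by the 2 arrays per group. The median SE of a difference was 0.20, so the 95% confidence interval (CI) of a typical gene reached 0.45 to either side, and the quartiles of all differences were -0.16 and 0.16. The difference was above 1 for 186 genes and below -1 for 72.

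Uox, which encodes urate oxidase, the peroxisomal enzyme that breaks down uric acid, had the largest called difference. It read 10.72 and 10.13 in LE D4, 7.37 and 6.74 in hub D4, and 6.09 and 5.60 in control D4. At D7 it read 3.97 and 4.42 in LE, 4.13 and 4.16 in hub, and 3.70 and 3.80 in control cells. At D4 the LE arrays stood far above the controls, with the hub between them, while at D7 all 6 arrays lay within 1 log2 unit. The LE response was 4.58 at D4 and 0.45 at D7, a difference of 4.13 (SE 0.37, 95% CI 3.30 to 4.96, adjusted p = 0.0040). The D7 values of Uox were dim, all but LE replicate 2 below the median of their array (4.25 to 4.28). Both D4 controls lay above theirs (5.44 and 5.42).

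Stfa2l1, a member of the stefin A family of cysteine protease inhibitors, stood apart in LE cells at D4. It read 7.92 and 7.64 in LE D4, 4.44 and 4.74 in hub D4, and 4.24 and 4.53 in control D4. In D7 cells it read 3.61 and 3.33 in LE, 3.39 and 3.43 in hub, and 3.14 and 3.23 in control skin. Hub and control overlapped at D4, and at D7 the LE and control arrays were less than 0.5 apart. The response was 3.40 at D4 and 0.29 at D7, a difference of 3.11 (SE 0.22, adjusted p = 0.0015). Its D7 values were dim, with both controls and LE replicate 2 below the lower quartile of their arrays (3.41, 3.42 and 3.42), as was control D4 replicate 1 (4.46). Stefin A genes of the mouse are near-identical copies, so a probe set of one may read others.

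Gjb6, which encodes the gap junction protein connexin 30, was higher in LE than in control cells on both days. It read 8.59 and 8.45 in LE D4 against 4.57 and 4.71 in control D4, and 5.74 and 5.27 in LE D7 against 4.24 and 4.43 in control D7. LE arrays lay above controls on both days, by 3.88 at D4 and 1.17 at D7. The difference was 2.71 (SE 0.23, adjusted p = 0.0032). Its partner in epidermal gap junctions, Gjb2 (connexin 26), leaned the other way. The Gjb2 response was 2.91 at D4 and 3.77 at D7, a difference of -0.86 (95% CI -1.70 to -0.01, adjusted p = 0.63).

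Insig1, an endoplasmic reticulum protein that holds back the sterol sensor complex of SREBP, was likewise higher in LE cells on both days. It read 9.45 and 9.46 in LE D4, 8.63 and 8.30 in hub D4, and 7.56 and 7.25 in control D4. For D7 the values were 7.94 and 7.97 in LE, 7.88 and 7.78 in hub, and 7.49 and 7.47 in control cells. The LE response passed on both days, at 2.05 and 0.47, and the difference was 1.58 (SE 0.19, adjusted p = 0.035).

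Ctsf, the lysosomal cysteine protease cathepsin F, was the only called gene with a lower response at D4. It read 5.87 and 5.92 in LE D4 against 7.52 and 7.76 in control D4, and 6.19 and 6.16 in LE D7 against 6.19 and 6.45 in control D7. LE arrays were below controls at D4 and overlapped them at D7. The response was -1.75 at D4 and -0.14 at D7, a difference of -1.60 (SE 0.17, adjusted p = 0.015). A second probe set of Ctsf did not follow it, with a difference of 0.22.

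**Figure D2:**
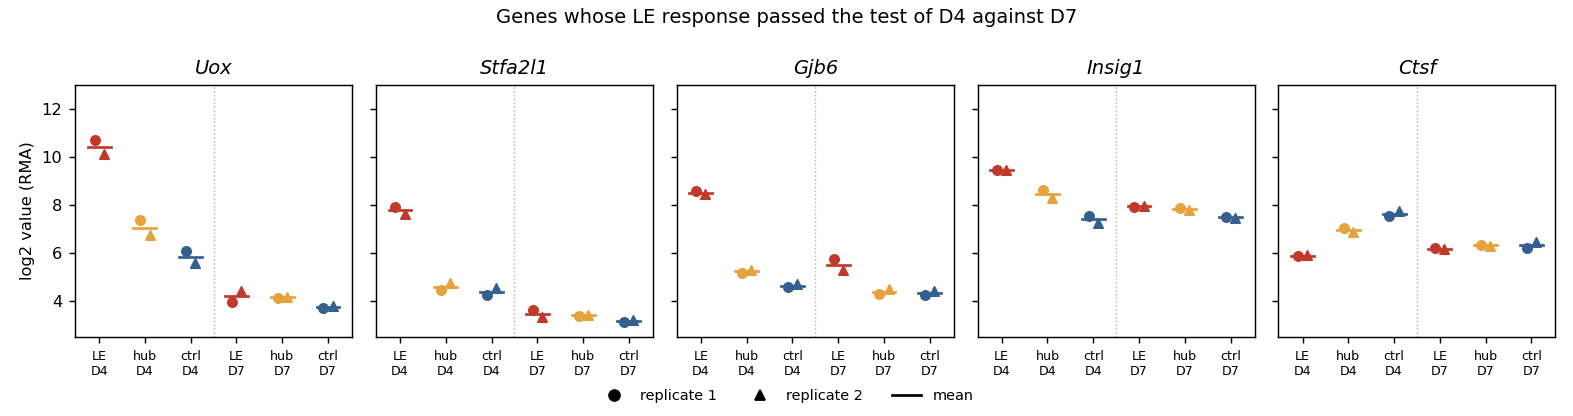
Log2 values of the 5 called genes on all 12 arrays, by region and day, with a circle for replicate 1, a triangle for replicate 2 and a bar for their mean. Within D4, the LE arrays of Uox, Stfa2l1, Gjb6 and Insig1 lie above the hub and control arrays and those of Ctsf below them. Levels of the 2 days are on different scales and are not to be compared.

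The control arrays drop out when the LE is set against the hub, as (LE minus hub at D4) minus (LE minus hub at D7). This test shares the 4 LE arrays with the main one, so it is no independent evidence. It called 3 genes with a larger step at D4 (0.0175%) and 0 genes with a smaller one (0%), where limma gave 478 and 396 genes at an unadjusted p under 0.05. The 3 were Stfa2l1 (3.13, adjusted p = 0.0014), Uox (3.32, adjusted p = 0.029) and Gjb6 (2.17, adjusted p = 0.024). For Insig1 the value was 0.87 and for Ctsf -0.91, neither past the test (adjusted p = 0.64 for both).

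Genes of cholesterol and fatty acid synthesis, the pathway that Insig1 restrains, tended to a larger response at D4. Of 27 measured, 14 were higher in LE than in control cells at D4 and 10 at D7, and none was lower on either day. The difference between the days had an unadjusted p under 0.05 with a larger D4 response for 7 and a smaller one for 0, and only Insig1 passed. The median difference was 0.32, against -0.002 over all genes. Msmo1 (sterol methyl oxidase) read 7.75 and 8.21 in LE D4 against 7.07 and 6.63 in control D4, and 7.02 and 6.85 in LE D7 against 7.36 and 7.37 in control D7. LE was above control at D4 and below it at D7, a difference of 1.55 (SE 0.27, adjusted p = 0.12). Idi1 (isopentenyl diphosphate isomerase) read 9.32 and 9.30 in LE D4 against 7.67 and 6.61 in control D4, and 8.25 and 8.05 in LE D7 against 7.07 and 7.86 in control D7. Its D4 controls were more than 1 log2 unit apart, and the difference of 1.48 had a wide CI (0.25 to 2.71). Hmgcs1 (HMG-CoA synthase) and Mvd (mevalonate decarboxylase) had differences of 1.35 and 0.87 (adjusted p = 0.45 and 0.60). Under a scaling of every array to one median and spread, the median of the list was 0.19, and 4 genes had such a p with the larger response at D4 and 1 with the smaller. The median was 0.19 without control D4 replicate 2 as well, and the count was 4 and 1 without control D7 replicate 2, 4 and 0 without LE D7 replicate 2.

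The promoters of 3 of these genes are printed because Insig1 is the called gene of the list and most of its promoters share the CCAAT box, the site of the factor NF-Y. Of 21 genes of the list with a promoter window in RefSeq (250 bases before to 50 after a start, either strand), 18 held CCAAT or its complement ATTGG (85.7%), against 42.3% of 13605 tested genes with a window. The share was not particular to this list. It was 84.6% for G2/M and mitosis genes (22 of 26) and 30.8% for ribosome biogenesis genes (8 of 26), lists that are described below. E-boxes (CACGTG) were in 6 of the 21, against 10.2% of all. A match is a description of the letters and shows no binding. The 250 bases before the start follow, 5′ to 3′ along the gene on GRCm38.p6, with CCAAT or ATTGG in capitals. Insig1 lies on the plus strand at chr5:28071162-28071411, Idi1 on the plus strand at chr13:8885356-8885605 and Msmo1 on the minus strand at chr8:64733579-64733828.
Insig1: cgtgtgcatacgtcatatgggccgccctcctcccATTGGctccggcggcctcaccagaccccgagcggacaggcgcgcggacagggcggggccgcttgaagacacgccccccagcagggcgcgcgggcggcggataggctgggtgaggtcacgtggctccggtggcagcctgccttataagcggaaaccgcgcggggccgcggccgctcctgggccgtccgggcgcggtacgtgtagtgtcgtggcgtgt
Idi1: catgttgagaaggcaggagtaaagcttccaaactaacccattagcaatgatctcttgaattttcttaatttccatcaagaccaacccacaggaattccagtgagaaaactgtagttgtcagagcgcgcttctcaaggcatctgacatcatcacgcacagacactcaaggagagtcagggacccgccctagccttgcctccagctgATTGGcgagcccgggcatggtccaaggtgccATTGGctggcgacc
Msmo1: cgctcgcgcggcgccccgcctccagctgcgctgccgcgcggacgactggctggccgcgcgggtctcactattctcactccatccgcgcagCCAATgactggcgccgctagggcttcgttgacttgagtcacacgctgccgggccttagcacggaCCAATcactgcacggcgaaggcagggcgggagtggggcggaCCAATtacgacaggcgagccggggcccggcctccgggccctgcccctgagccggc
Insig1 has 1 such match in this stretch, Idi1 2 and Msmo1 3. Among the 5 called genes, 3 held a CCAAT match in the 300-base window and 2 an E-box, and none held the AP-1 motif (TGACTCA or TGAGTCA) or the E2F motif (TTTGGCGC or TTTCCCGC). Over all tested genes with a window, 42.3% held CCAAT, 10.2% an E-box, 5.42% AP-1 and 2.71% E2F. The 5 genes are too few to be set against these shares.

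Ribosome biogenesis factors, which process ribosomal RNA and assemble subunits, showed the reverse. All 31 measured had a smaller LE response at D4 than at D7, with differences from -1.10 to -0.004 and a median of -0.41. An unadjusted p under 0.05 was reached by 10, all with the smaller response at D4, and 0 passed the limma test. In 20 of the 31, each of the 4 LE-minus-control differences of D4 lay below each of the 4 of D7, which was so for 9.86% of all genes. Only 1 gene was called higher in LE than in control cells at D4, against 20 at D7. The median over the list, relative to the control mean of the day, was 0.11 and 0.11 on the LE D4 arrays and 0.61 and 0.56 on the LE D7 arrays, with controls within 0.09 at D4 and 0.004 at D7. Heatr1, needed for transcription of ribosomal DNA, read 7.54 and 7.98 in LE D4 against 7.93 and 7.98 in control D4, and 6.65 and 6.84 in LE D7 against 5.88 and 5.79 in control D7. LE and control overlapped at D4 and stood apart at D7, a difference of -1.10 (SE 0.20, adjusted p = 0.15). Polr1b, a subunit of RNA polymerase I, had a response of -0.16 at D4 and 0.82 at D7 (difference -0.99, adjusted p = 0.32). Rrp9, Rrp12 and Nop56, which process or modify ribosomal RNA, had differences of -0.69, -0.65 and -0.63. The median was between -0.55 and -0.32 under every scaling and with any 1 array left out, but the count of 10 was 5 without control D4 replicate 1 or LE D7 replicate 1, 15 without control D4 replicate 2 and 21 with each array scaled to one median and spread. Under that scaling, 1165 of all genes had a smaller response at D4 at such a p, against 681 in the main fit. Without control D4 replicate 1, 3 of the 31 had a larger response at D4. Hub cells showed a median of 0.16 at D4 and 0.34 at D7 against the same controls. Proteasome subunits had 15 of 32 called higher at D4 and 24 at D7. Their median difference was -0.11, and -0.26 with each array scaled to one median and spread. An unadjusted p under 0.05 was reached by 4, and by 10 under that scaling, all with the smaller response at D4. That count was 1 to 5 with 1 LE or control array left out, and 1 without LE D7 replicate 1 or control D7 replicate 2.

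**Figure D3:**
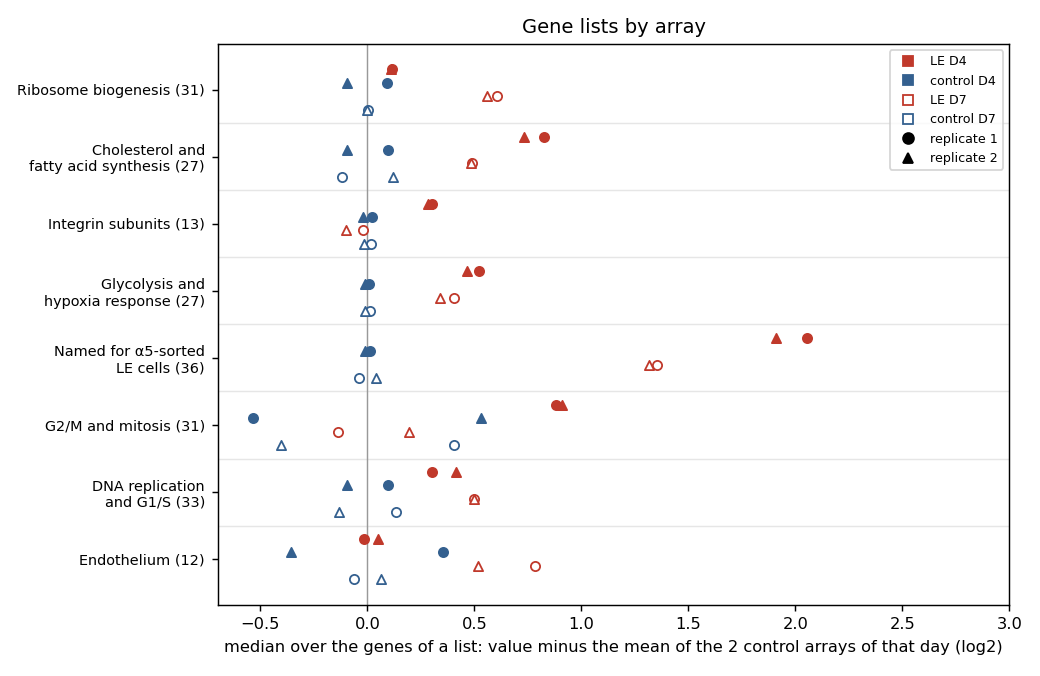
Median over the genes of a list of the value on each array minus the mean of the control arrays of that day (log2), with the number of genes measured in brackets, filled symbols for D4 and open symbols for D7. Ribosome biogenesis is near 0.11 on both LE D4 arrays and at 0.56 and 0.61 on the LE D7 arrays, while for G2/M genes the control D4 arrays are themselves at -0.53 and 0.53.

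The cell cycle lists were not settled by these arrays. All 31 genes of G2/M and mitosis had a larger response at D4, with a median difference of 0.89, and 8 were called higher in LE than in control cells at D4 against 0 at D7. However, the controls disagreed. Relative to the control mean of the day, the list had a median of 0.88 and 0.91 in LE D4 against -0.53 and 0.53 in control D4, and -0.14 and 0.20 in LE D7 against 0.40 and -0.40 in control D7. Control D4 replicate 2 lay more than 1 log2 unit above replicate 1 for 19 of the 31. Without control D4 replicate 1 the median difference was 0.33 with 0 genes at an unadjusted p under 0.05, and without replicate 2 it was 1.35 with 24. Without control D7 replicate 1 it was 0.47 with 0, without control D7 replicate 2 it was 1.18 with 19, without either LE D4 array 2 genes had such a p, and without LE D7 replicate 1 none had. With all arrays 7 genes had such a p and 0 passed. The 4 differences of D4 all lay above those of D7 for 3 of the 31, against 9.52% of all genes. Ccna2 (cyclin A2) read 10.45 and 10.42 in LE D4 against 9.21 and 9.85 in control D4, and 9.47 and 9.86 in LE D7 against 9.90 and 9.22 in control D7. LE was above control at D4 and overlapped it at D7, and the difference was 0.80 (SE 0.35, adjusted p = 0.63). Kif11, a spindle motor, had a difference of 1.59 (SE 0.62) and Nusap1, a spindle protein, 1.95 (SE 0.84), and for Nusap1 the D4 controls were 5.09 and 7.15. The Nusap1 response was -0.03 at D4 and -1.98 at D7. A second probe set of Nusap1 had a difference of only 0.12, while those of Kif11 and Ccna2 were close to the chosen ones. Hub cells had a median of 0.96 at D4 and 0.08 at D7 for the 31 genes of the list, against the same controls. Genes of DNA replication and G1/S had responses of 0.42 at D4 and 0.46 at D7 at the median, with 10 of 33 called higher at D4 and 12 at D7. Mcm6, part of the replicative helicase, was the member with the largest difference, -0.85 (SE 0.24, adjusted p = 0.39).

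Genes that the study names for α5-integrin sorted LE cells of D4 were mostly high on both days. Of 36 measured, 34 were called higher in LE than in control cells at D4 and 29 at D7. That list was drawn up from LE cells of D4, so its direction is not independent evidence. The median difference was 0.38, an unadjusted p under 0.05 was reached by 13 with the larger response at D4 and by 1 with the smaller, and Gjb6 alone passed. Scaled to one median and spread per array, the median was 0.16, with 8 and 3.

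Of the proteases in that set, Mmp1b, an interstitial collagenase, read 7.28 and 7.07 in LE D4 against 3.95 and 4.15 in control D4, and 4.43 and 3.62 in LE D7 against 3.14 and 2.95 in control D7. LE arrays were above controls on both days, by 3.13 at D4 and 0.98 at D7 (difference 2.15, SE 0.31, adjusted p = 0.085). Mmp9, a gelatinase, had the largest response of the set on both days, 6.30 at D4 and 5.94 at D7. Its difference of 0.36 had a 95% CI from -2.57 to 3.29, so a change of several-fold in either direction was within error. The other probe set of Mmp9 had a response of 5.79 at D4 and 4.19 at D7, a difference of 1.60. Outside that set, Mmp3 (stromelysin 1) had a response of 1.19 at D4 and 0.005 at D7 (adjusted p of the difference = 0.44). Serpinb2 (plasminogen activator inhibitor 2) had -0.95 and -2.33. Mmp2, which passed as lower in LE cells on both days, had -2.12 at D4 and -1.51 at D7.

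Adhesion genes differed by family. Of 13 integrin subunits, 4 were called higher in LE cells at D4 and 0 at D7, and 4 had an unadjusted p under 0.05 for the difference (Itga2, Itgb1, Itgav and Itgb4), all with the larger response at D4. Itga2, the collagen receptor subunit, read 9.49 and 8.94 in LE D4 against 7.29 and 8.27 in control D4, and 7.69 and 7.16 in LE D7 against 7.43 and 7.47 in control D7. LE arrays were above controls at D4 and on both sides of them at D7, a difference of 1.46 (SE 0.43, adjusted p = 0.41). Itga5, the fibronectin receptor subunit, had a response of 1.88 at D4 and 0.92 at D7 (difference 0.96, 95% CI -0.12 to 2.03). The median over the integrins was 0.39. With each array scaled to one median and spread it was 0.28, and 1 gene had such a p with the larger response at D4. Leaving out 1 LE or control array gave 0.29 to 0.46 and 1 to 5 genes with such a p and the larger response at D4, and 1 without LE D4 replicate 1 or control D7 replicate 2. Of 16 genes of desmosomes and gap junctions, only 4 had a larger response at D4, and the median was -0.10, with 2 at such a p in each direction. Of 15 tight junction genes 7 had a larger one, at a median of -0.02, and none had such a p. The 22 matrix and basement membrane genes went both ways, with a median of 0.24 and differences from -1.13 to 0.92. At such a p, 4 had the larger response at D4 and 2 the smaller. The lowest difference was that of Tnn, which had responses of -1.85 at D4 and -0.72 at D7. Itgb1 had 4 more probe sets, with differences of 0.66, 0.47, -0.01 and -0.05 beside the 0.43 of the chosen one. Lamb3 and Lama3, laminin chains of the basement membrane, had differences of 0.48 and 0.41, and Fn1 (fibronectin) 0.63, from responses of 1.82 at D4 and 1.19 at D7. When dim values were raised to the median of their array, the Fn1 difference was -0.046.

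Cytoskeletal genes were high in LE cells on both days, with 19 of 28 actin and myosin genes called at D4 and 18 at D7 and a median difference of 0.04. Cald1 (caldesmon) read 9.84 and 9.98 in LE D4 against 5.06 and 5.16 in control D4, and 8.64 and 8.31 in LE D7 against 4.95 and 4.70 in control D7. Its LE arrays were more than 3 log2 units above controls each day, and the difference was 1.15 (SE 0.28, adjusted p = 0.29). Other probe sets of Cald1 had smaller differences of 0.30, 0.48, 0.27 and 0.56. Nav2, a microtubule-binding protein, had a response of 3.14 at D4 and 2.07 at D7. Basp1, a membrane protein of growth cones, had 3.81 at D4 and 4.53 at D7. Fscn1, the actin bundler fascin, had 3.06 and 3.25 (difference -0.20, 95% CI -0.89 to 0.49), and Tubb3, a tubulin best known from neurons, 4.61 and 4.93 (difference -0.32, 95% CI -1.69 to 1.05). Marcksl1, an actin-binding MARCKS relative, read 11.35 and 10.95 in LE D4 against 7.86 and 7.71 in control D4, and 9.60 and 9.44 in LE D7 against 7.75 and 7.78 in control D7. LE exceeded control on both days, by 3.37 and 1.76, and the difference of 1.61 was close to the threshold (SE 0.22, adjusted p = 0.077).

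Signals and metabolism gave single genes with large but uncalled differences. Inhba, the activin A subunit, read 11.29 and 10.49 in LE D4 against 5.68 and 5.72 in control D4, and 8.05 and 6.60 in LE D7 against 3.60 and 4.17 in control D7. The LE arrays were far above controls on both days and were themselves apart, so the difference of 1.75 had a CI that included 0 (-0.10 to 3.60). Ereg, the EGF receptor ligand epiregulin, had 3.78 at D4 and 3.18 at D7, and Fgf18, a fibroblast growth factor, 2.10 and 1.00. Id3, a target of BMP signals, was lower in LE cells on both days, at -1.71 and -0.80. Smad3, which carries activin and TGF-β signals, had 0.43 and -0.21. Ccn2 (connective tissue growth factor) had 0.04 at D4 and was lower in LE cells at D7 (-1.44, difference 1.47, adjusted p = 0.31). Spry4, a feedback inhibitor of MAPK signals, had 0.28 and -0.50, and Junb, an AP-1 subunit, -0.85 and -0.11. Other probe sets of Spry4 had responses of 0.14, 0.083 and 0.0053 at D7, with differences of 0.056, 0.45 and 0.21. Flrt3, an adhesion and guidance protein, had 1.10 and 0.10 (difference 1.00, adjusted p = 0.085).

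In the list of glycolysis and hypoxia response, 18 of 27 genes were called higher in LE cells at D4 and 13 at D7. The median difference was small (0.10), but 8 genes had an unadjusted p under 0.05 and the larger response at D4, against 0 the other way. Car9, a carbonic anhydrase and hypoxia marker, read 8.52 and 8.16 in LE D4 against 5.44 and 4.80 in control D4, and 5.25 and 5.38 in LE D7 against 4.50 and 4.14 in control D7. LE lay above control on both days, by 3.22 and 1.00 (difference 2.22, SE 0.37, adjusted p = 0.12). Pfkfb3, which raises glycolytic flux, had a response of 1.35 at D4 and 0.12 at D7, P4ha2, a collagen prolyl hydroxylase, 1.20 and 0.10, Bnip3, a mitophagy receptor, 1.90 and 0.87, and Ndrg1, a hypoxia-induced gene, 1.04 and 0.31. The list median was -0.08 with each array scaled to one median and spread, where 8 genes still had a larger response at D4 at that p and 2 a smaller one. Arg1, the urea cycle arginase, read 10.29 and 9.48 in LE D4, 5.51 and 5.48 in hub D4, and 5.74 and 5.08 in control D4. The D7 values were 5.56 and 5.04 in LE, 3.82 and 4.13 in hub, and 4.09 and 3.27 in control cells. LE stood apart from hub and control on both days, with a difference of 2.86 (SE 0.48, adjusted p = 0.12). Cpn1, a carboxypeptidase N subunit, had 3.85 at D4 and 1.81 at D7 (adjusted p = 0.085), and Ogdh, an enzyme of the citric acid cycle, -0.11 and 0.82 (adjusted p = 0.087). A second probe set of Ogdh had a difference of 0.21.

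Stress keratins and small proline-rich proteins, cornified envelope precursors that wounded epidermis makes in quantity, divided by member. Of 12 measured, 7 were called higher at D4 and 8 at D7, 1 had an unadjusted p under 0.05 with the larger response at D4, 4 had one with the smaller, and the median difference was -0.39. That median was -0.14 without control D4 replicate 1, -0.79 without control D4 replicate 2, -0.22 without LE D4 replicate 2 and -0.73 with each array scaled to one median and spread. Krt6b, a stress keratin, read 12.03 and 12.06 in LE D4 against 11.17 and 8.69 in control D4, and 11.37 and 10.85 in LE D7 against 3.04 and 3.17 in control D7. LE arrays were near the top of the scale on both days, while the control arrays differed, and those of D7 lay below the lower quartile of their arrays (3.41 and 3.42). The difference was -5.90 (SE 0.82, adjusted p = 0.083), from responses of 2.11 at D4 and 8.003 at D7. The size of the Krt6b difference depended on the control D4 arrays, at -4.66 or -7.14 with 1 of them left out. Such a fit no longer holds the gap between these 2 arrays, so its test is not given. Hub cells gave 1.95 at D4 and 7.65 at D7 against the same controls. Car2, a carbonic anhydrase, had a like pattern, with 10.64 and 10.99 in LE D4 against 9.07 and 7.81 in control D4, and 10.56 and 10.49 in LE D7 against 6.46 and 5.80 in control D7 (difference -2.02, adjusted p = 0.31). Sprr2d read 11.47 and 11.16 in LE D4 against 7.39 and 7.64 in control D4, and 9.06 and 9.23 in LE D7 against 4.12 and 3.70 in control D7 (difference -1.44, adjusted p = 0.11). LE exceeded control by over 3 log2 units on both days. Krt16 had 0.51 and 1.18, Krt6a 0.79 and 1.15, and Sprr2a1 0.13 and 0.97, and all 3 read between 11.66 and 12.84 on the D4 arrays, near the top of the scale. Sprr2 genes are close copies and may share signal. S100a8, an antimicrobial alarmin of keratinocytes and neutrophils, had 2.62 at D4 and 4.21 at D7, with D4 controls at 9.84 and 7.59 (SE of the difference 1.09). S100a9, which the study names together with S100a8, leaned the other way, with 3.21 at D4 and 2.66 at D7.

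Some genes of the cornified layer read higher on 1 LE D4 array than on the other. The 40 suprabasal and cornified envelope genes measured went both ways, with a median difference of 0.08. At D4, 4 were called higher in LE than in control cells and 5 lower, and at D7 3 and 1. At an unadjusted p under 0.05 in the limma fit, 2 had the larger response at D4 and 4 the smaller. Cdsn (corneodesmosin, which holds corneocytes together) read 10.43 and 7.38 in LE D4 against 5.52 and 5.81 in control D4, and 4.65 and 4.72 in LE D7 against 4.39 and 4.88 in control D7. Both LE D4 arrays were above the controls, by very unequal steps, and the difference was 3.18 (SE 1.01, adjusted p = 0.44). Alox12b, a lipoxygenase of barrier lipids, read 8.83 and 5.79 in LE D4 against 5.14 and 5.35 in control D4, and Nccrp1 8.67 and 4.72 against 4.63 and 4.46. At D7 both were between 3.23 and 4.66 on the LE and control arrays. Cnfn (cornifelin) had 9.15 and 7.01 in LE D4, Klk6, a kallikrein protease, 8.18 and 5.15, and Sprr2f 8.07 and 6.76. Replicate 1 of LE D4 was the higher one in each case. Of 40 suprabasal and cornified envelope genes, 9 were higher by over 1 log2 unit on LE D4 replicate 1 than on replicate 2 and 1, Krt2, was lower, whereas on the control D4, hub D7 and control D7 arrays no gene of the list differed by that much. Without LE D4 replicate 1 the Nccrp1 difference was -0.03 and the Klk6 difference -0.64. Without replicate 2 the Cdsn difference was 4.71 and the Alox12b difference 3.33, and the gap between the 2 LE D4 arrays no longer entered the spread. What part suprabasal cells had in this array was not tested.

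**Figure D4:**
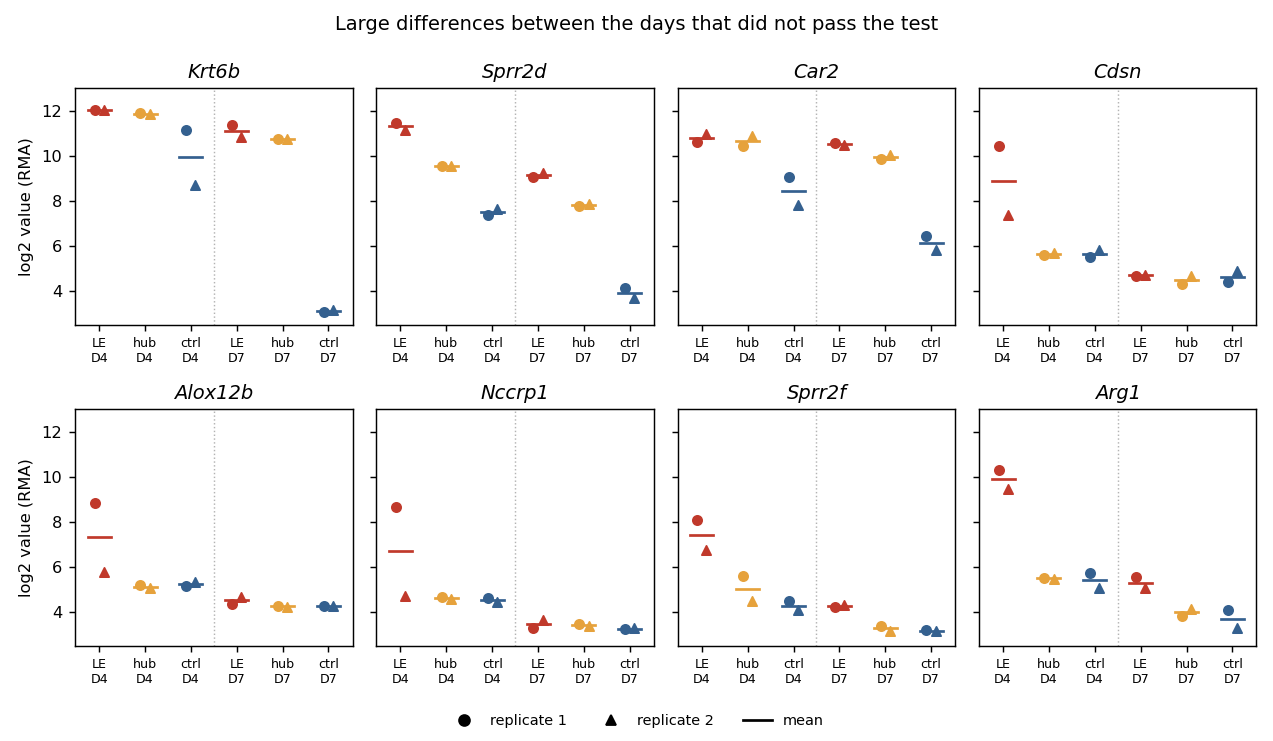
Log2 values on all 12 arrays of 8 genes with a large difference between the days that did not pass the test, with symbols as in the plot of the called genes. The control D4 arrays are apart for Krt6b (11.17 and 8.69), and LE D4 replicate 1 is far above replicate 2 for Cdsn (10.43 and 7.38), Alox12b and Nccrp1.

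Among markers of other cells, the response differed most between the days in the sebaceous, infundibulum, endothelial and melanocyte lists, and no marker passed the test. Of 12 endothelial genes the median difference was -0.47, with 3 at an unadjusted p under 0.05, all with the smaller response at D4. Cdh5 (VE-cadherin) read 6.33 and 7.14 in LE D4 against 7.37 and 5.49 in control D4, and 6.88 and 6.70 in LE D7 against 4.65 and 4.87 in control D7 (difference -1.73, adjusted p = 0.60). LE and control overlapped at D4, where replicate 1 of the control was over 1 log2 unit above replicate 2 for 4 of the 12 genes, and the list median was -0.01 without it and -0.73 without replicate 2. It was -0.29 without LE D7 replicate 1. With 1 LE or control array left out, 0 to 7 genes of the list had such a p, and 0 without control D4 replicate 1, LE D4 replicate 1 or control D7 replicate 2. The median level of the list was 5.84 and 5.92 in LE D4 against 6.07 and 5.08 in control D4, and 4.91 and 4.56 in LE D7 against 4.08 and 4.23 in control D7. A second probe set of Cdh5 had responses of 0.18 at D4 and 0.62 at D7, a difference of -0.43. The part of endothelial RNA in the LE response was not tested. For 11 melanocyte genes the median difference was -0.44, and their median level was 5.15 and 5.15 in LE D4 against 6.65 and 5.28 in control D4, so 1 control array stood apart there too. For 8 sebaceous genes the median difference was 0.61, with Pparg, a regulator of lipid storage, at 1.20 in LE cells at D4 and -0.52 at D7 (adjusted p of the difference = 0.31), and for 7 infundibulum and isthmus genes it was 0.52. Replicates stood apart in the sebaceous list, whose median level was 7.62 and 7.43 in LE D4 against 7.52 and 6.44 in control D4, and 5.03 and 6.52 in LE D7 against 6.05 and 7.52 in control D7. Fibroblast, T cell, Langerhans cell and mast cell lists had median differences between -0.05 and 0.14. Krt36, a hair-type keratin of tail scales, was lower in LE cells at D4 (-5.97), and had -2.96 at D7, where the LE arrays read 7.82 and 4.43 (difference -3.01, SE 1.37). The tail scale and interscale list had a median response of -0.99 at D4 and -1.02 at D7.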

How the data were processed

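The arrays measured mRNA of sorted basal cells. The deposited values are log2 intensities that the authors had made with RMA, as the sample records name it, with the version not given in the sources used here. The columns of all 12 arrays entered the fit. Of 45141 probe sets, 104 were controls, 15588 had no gene, 551 had several and 28898 had 1. Each of 17097 genes was read from 1 probe set, the brightest on average across the 12 arrays, with no filter on dim values.

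One limma 3.58.1 fit (R 4.3.3) of 6 groups on 6 residual degrees of freedom gave every SE, CI and p value, adjusted over all 17097 genes. The contrast used only differences within a day. The procedure was tested on simulated data.

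Members and gene lists were chosen with earlier results of these data known. The rule for named genes took called genes, up to 2 members with the largest absolute difference from lists without a called one, and genes the study names. Other genes named were chosen after their values were seen, and not every gene the rule allows is printed. Promoter windows are from RefSeq (GRCm38.p6). Alternatives were 3 scalings, raised or filtered dim values, other probe sets, a trended prior, array weights, 8 arrays alone, a minimum change, a replicate block and each array left out.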

Additional observations from a re-analysis of the deposited data

Results flagged for a closer look

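For 5 genes the LE response itself differed between D4 and D7 by the test of the difference, in limma, with an adjusted p under 0.05. The differences were 4.13 for Uox, 3.11 for Stfa2l1, 2.71 for Gjb6, 1.58 for Insig1 and -1.60 for Ctsf on the log2 scale. For 3 of these the step between LE and hub also differed between the days, by 3.32 for Uox, 3.13 for Stfa2l1 and 2.17 for Gjb6. Groups of 2 arrays are too small for a test of outlying arrays.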

How the results depend on the processing

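The limits are few arrays, dim values at D7 and single arrays that stand apart. The 5 calls became 8 after quantile normalization, 27 with dim values raised to the array median, 2 among genes above the array median on both days, 15 with a trended and robust prior, 3 with the 8 LE and control arrays alone and 2 for a difference of at least 1 log2. With each array scaled to one median and spread there were 3 higher and 4 lower, in place of 4 and 1. Leaving out 1 array gave 3 to 49 calls, 3 without LE D4 replicate 1, LE D7 replicate 2 or either hub D7 array, 15 without control D4 replicate 2 and 49 without LE D4 replicate 2. Uox and Stfa2l1 passed in all 22 alternatives in which they were tested, Gjb6 in 22 of 23, Ctsf in 13 of 23 and Insig1 in 11 of 23, with no change of direction in these. The mean of the probe sets of Ctsf gave -0.69, and its second probe set 0.22.

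For the LE against the hub, the 3 calls became 1 with one median and spread per array, 1 among genes above the array median and 1 for a difference of at least 1 log2, and leaving out 1 array gave 1 to 35. This contrast could not be fitted on the 8 LE and control arrays. For a difference of at least 1 log2, 143 genes passed at D4 in place of 2416 and 96 at D7 in place of 2499. Leaving out 1 array gave 1579 to 2307 genes at D4, the lowest without LE D4 replicate 1, and 1016 to 2650 at D7, where there were 1016 and 1551 without LE D7 replicate 1 and 2, and 1412 and 1346 without control D7 replicate 1 and 2.

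With the replicate number as a block within each day, 5 genes passed for the difference between the days, with Marcksl1 in and Ctsf out (adjusted p = 0.072), 2 for the LE against the hub, 2619 at D4 and 2721 at D7. The deviations of equal-numbered LE and control arrays correlated at 0.17 at D4 and 0.07 at D7, so the numbers were not taken as pairs.

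Over the single genes named, 1800 values under an alternative kept direction and side of the threshold, 33 newly passed, 23 no longer passed and 21 changed sign, Ctsf among these and the rest uncalled. Other probe sets gave -0.048 and -0.010 for Itgb1, -0.045 for Nav2, -0.064 for Mvd and 0.21 for Ogdh. Raised dim values gave -0.046 for Fn1 and 0.12 for Tubb3, and one median and spread gave -0.32 for Mmp9. Leaving out 1 array gave -0.81 to 0.19 for Sprr2h, -0.027 to 0.75 for Mmp9, -0.51 to 0.12 for Fscn1, -0.92 to 0.29 for Tubb3, -0.64 to 2.39 for Klk6, -0.026 to 3.93 for Nccrp1, -0.11 to 0.072 for Krt5 and -3.97 to 0.16 for Krt2. The cause was not tested.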
